A study of Mus musculus with 18 samples.

Results

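Genes that carry or convert vitamin A, or encode receptors of its product retinoic acid, were followed in mouse hepatocytes with and without Mtdh. They are 9 members of retinoid metabolism and signalling: Rbp4, Adh1, Rdh10, Dhrs3, Aldh1a1, Aldh1a7, Aldh8a1, Rara and Rarb. They were chosen by symbol, with earlier results of these data known. All 9 were found among the 16873 genes of the expression table, and all 9 passed the filter on low values. The RNA came from hepatocytes, the main epithelial cells of the liver, of mice that lack Mtdh (KO) and of wild-type (WT) mice, all without tumours. The mice were matched for age. Each genotype was treated with TNFa (an inflammatory cytokine), with TGFb (a cytokine that drives fibrosis) or with medium conditioned by Kupffer cells, the resident macrophages of the liver. Those Kupffer cells had been exposed to Py8119-EVPs, and their medium is called CM below. The 6 groups were KO with TNFa, WT with TNFa, KO with TGFb, WT with TGFb, KO with CM and WT with CM, with 3 libraries each and 18 in all. Untreated cells were not analysed here, and no label states the age, the sex, the dose, the time or how Mtdh was deleted. Treatments can therefore be compared with each other but not with a resting state.

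Mtdh itself, read first as a check of the genotype labels, lay between 581 and 973 in the 9 KO libraries and between 10063 and 13725 in the 9 WT libraries. All values are read signals that the authors normalized between libraries with DESeq2, so they have no absolute unit. Estimated depth was 19.4 to 35.6 M reads a library, and the members drew between 36 estimated reads (Rarb, lowest library) and 22002 (Adh1, highest library). Albumin, a hepatocyte transcript, made up 5.83% to 10.33% of the summed signal of a library, with means between 1336700 and 2643300 over the 6 groups. Differences are log2 fold changes of the value plus 1, KO over WT unless stated, with their standard errors (SE). They were tested with limma over 14455 genes, and a gene is called where the Benjamini-Hochberg adjusted p over all of them was below 0.05.

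Vitamin A reaches cells as retinol, which hepatocytes release into blood bound to retinol-binding protein. Retinol is oxidised reversibly to retinal by alcohol and retinol dehydrogenases, and retinal is oxidised irreversibly to retinoic acid by retinal dehydrogenases of the Aldh1a family. Retinoic acid binds nuclear receptors (RARs, paired with RXRs) that sit on repeated DNA half-sites, and CYP26 enzymes hydroxylate it and so end its action. In the liver, hepatocytes take up and process retinoids, while stellate cells store most of them as retinyl esters.

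With TNFa, 3 of the 9 members were called higher in KO (Aldh8a1, Adh1 and Dhrs3), against 4.19% of all tested genes. With TGFb, 6 were called higher in KO (those 3 with Aldh1a1, Aldh1a7 and Rbp4), against 7.25% of all tested genes. With CM, 4 were called higher in KO (Aldh1a1, Aldh8a1, Adh1 and Dhrs3), against 5.62%. The 3 members called higher in all 3 treatments compare with 279 of all tested genes, or 1.93%. No member was called lower within a single treatment by limma, although Rarb with CM had an unadjusted p of 0.0457. Averaged over treatments, a comparison in which 11.2% of all tested genes were called higher and 9.53% lower in KO, Rdh10 and Rara did not pass, and Rarb was called lower. KO and WT libraries did not overlap for 5 members with TNFa (all higher), 7 with TGFb (6 higher) and 7 with CM (all higher), against 24.8%, 26.7% and 25.7% of all tested genes in either direction. The median log2 difference of the 9 members was 0.23 with TNFa, 0.85 with TGFb and 0.32 with CM, against 0.02, -0.01 and -0.01 for all tested genes. Because the members were chosen with earlier results of these data known, these shares and medians are no independent test of the set.

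**Figure D1:**
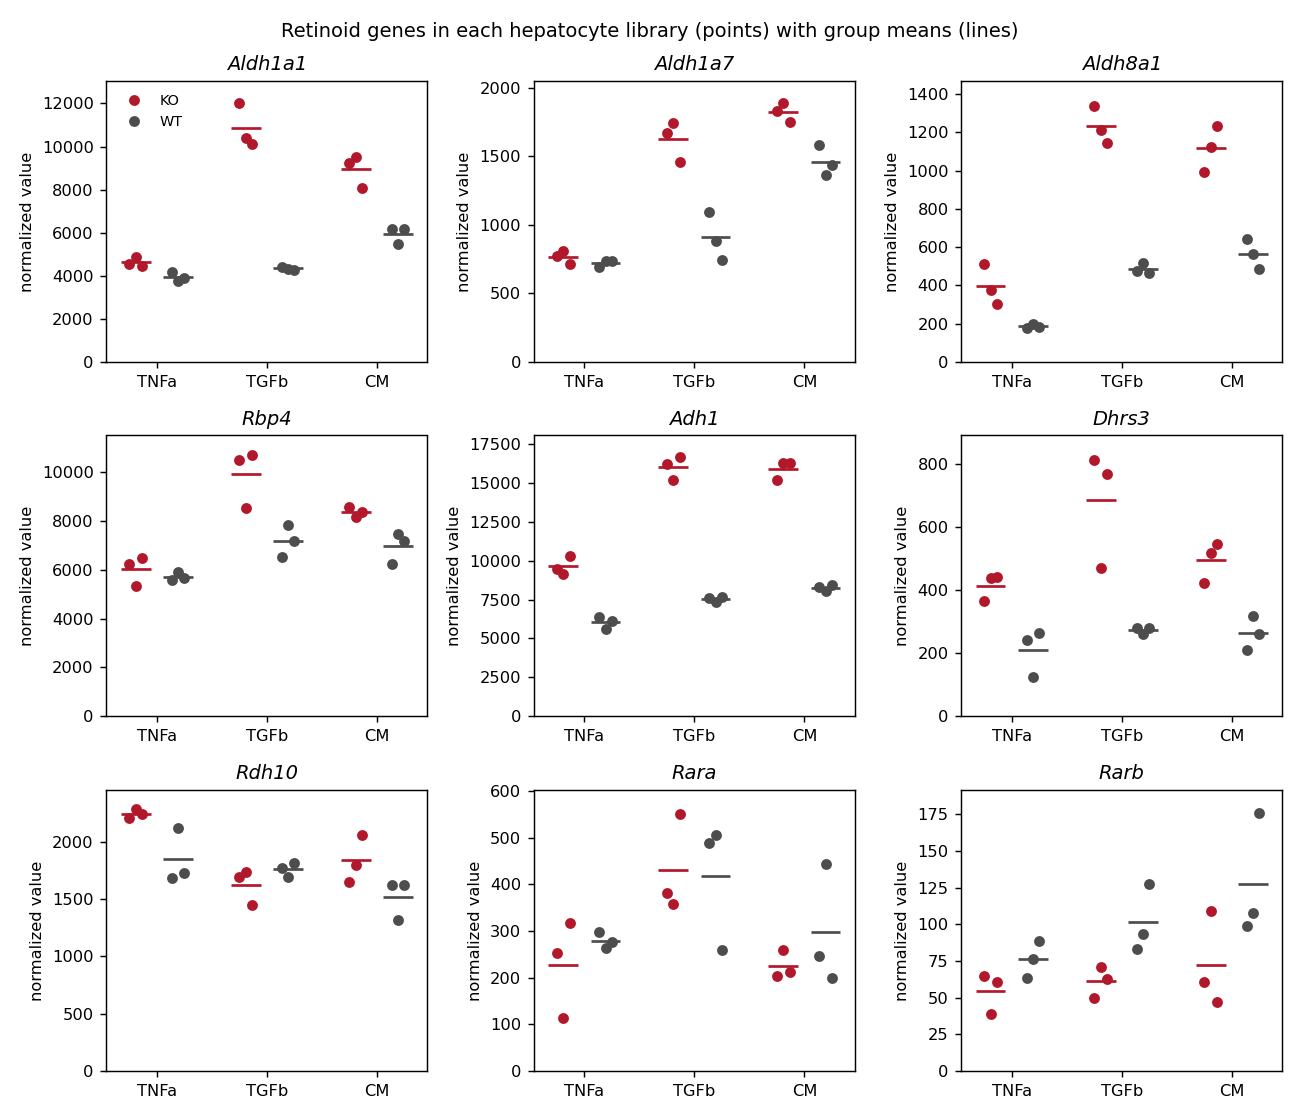
Normalized value (y axis, DESeq2-normalized, starting at 0) of each of the 9 genes in every library (points) with the group mean (line), for KO (red, left of each pair) and WT (grey) under TNFa, TGFb and CM. Adh1, Aldh8a1, Dhrs3 and Aldh1a1 were higher in every KO library than in every WT library of the same treatment. For Aldh1a1, KO and WT stood further apart with TGFb than with TNFa or CM.

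Rbp4 encodes the plasma carrier that takes retinol from the liver to other tissues (chr19:38105077-38113730 on mm39, minus strand, as listed in the deposited table). Per kilobase of exon it was the most abundant of the 9 members, with a median of 5336. With TNFa, Rbp4 measured 6226, 5343 and 6472 in KO against 5589, 5892 and 5647 in WT. With TGFb, Rbp4 measured 10490, 8534 and 10665 in KO against 6494, 7801 and 7155 in WT. With CM, Rbp4 measured 8564, 8141 and 8356 in KO against 6212, 7465 and 7178 in WT. KO and WT libraries overlapped with TNFa, and every KO library was above every WT library with TGFb and with CM. The rise in KO passed the test with TGFb (1.38-fold, log2 0.47 ± 0.10, limma adjusted p = 8.87e-04). The log2 differences of 0.07 ± 0.10 with TNFa (limma adjusted p = 0.752) and 0.27 ± 0.10 with CM (limma adjusted p = 0.0778) did not pass.

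Adh1, a class I alcohol dehydrogenase that oxidises ethanol and retinol (chr3:137966752-137996460, plus strand), was the second most abundant member per kilobase, with a median of 3937. With TNFa, Adh1 measured 9482, 9125 and 10273 in KO against 6352, 5609 and 6142 in WT. With TGFb, Adh1 measured 16207, 15150 and 16611 in KO against 7582, 7346 and 7686 in WT. With CM, Adh1 measured 15137, 16275 and 16270 in KO against 8293, 8025 and 8460 in WT. The lowest KO library was above the highest WT library of any treatment. Adh1 rose in KO by 1.60-fold with TNFa (log2 0.67 ± 0.08, limma adjusted p = 4.17e-07), 2.12-fold with TGFb (1.08 ± 0.08, adjusted p = 1.05e-11) and 1.92-fold with CM (0.94 ± 0.08, adjusted p = 5.45e-10). Its spread within groups was the smallest of the 9, with a median coefficient of variation of 4.42%.

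Dhrs3 encodes a reductase that turns retinal back into retinol, and it is itself a known retinoic acid target (chr4:144619397-144654780, plus strand). With TNFa, Dhrs3 measured 364, 439 and 442 in KO against 243, 125 and 264 in WT. With TGFb, Dhrs3 measured 813, 470 and 769 in KO against 279, 262 and 280 in WT. With CM, Dhrs3 measured 424, 517 and 547 in KO against 209, 319 and 261 in WT. Every KO library was again above every WT library of its treatment, with a wide spread in TNFa WT and TGFb KO. Dhrs3 rose in KO by 2.06-fold with TNFa (log2 1.04 ± 0.24, limma adjusted p = 0.00498), 2.43-fold with TGFb (1.28 ± 0.24, adjusted p = 3.09e-04) and 1.90-fold with CM (0.92 ± 0.24, adjusted p = 0.0113). The TNFa call was lost without WT replicate 2 (log2 0.71, adjusted p = 0.0638). The CM call was lost without KO replicate 3 (0.85, adjusted p = 0.0583) or WT replicate 1 (0.77, adjusted p = 0.0785).

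Rdh10 encodes the retinol dehydrogenase that supplies most retinal in the mouse embryo (chr1:16175998-16203959, plus strand). With TNFa, Rdh10 measured 2207, 2288 and 2242 in KO against 1685, 2123 and 1732 in WT. With TGFb, Rdh10 measured 1693, 1735 and 1451 in KO against 1773, 1693 and 1819 in WT. With CM, Rdh10 measured 1647, 1802 and 2064 in KO against 1624, 1315 and 1620 in WT. The KO libraries were all above the WT libraries with TNFa and CM and overlapped them with TGFb, but no difference passed the test within a treatment. The log2 differences were 0.29 ± 0.11 with TNFa (limma adjusted p = 0.118), -0.12 ± 0.11 with TGFb (adjusted p = 0.587) and 0.27 ± 0.11 with CM (adjusted p = 0.137). Without WT replicate 2 of TNFa the first of these was called (0.39, adjusted p = 0.0464), as was the average over treatments (0.18, adjusted p = 0.0434).

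Aldh1a1, a cytosolic retinal dehydrogenase of adult liver (chr19:20470079-20620830, plus strand), was the member whose KO effect differed most between treatments. With TNFa, Aldh1a1 measured 4527, 4895 and 4439 in KO against 4173, 3778 and 3875 in WT. With TGFb, Aldh1a1 measured 12006, 10401 and 10130 in KO against 4399, 4333 and 4288 in WT. With CM, Aldh1a1 measured 9222, 9522 and 8076 in KO against 6151, 5460 and 6172 in WT. The KO libraries lay above the WT libraries in each treatment, by the least with TNFa. Aldh1a1 rose in KO by 2.49-fold with TGFb (log2 1.32 ± 0.09, limma adjusted p = 2.02e-12) and 1.51-fold with CM (0.59 ± 0.09, adjusted p = 1.76e-05). The 1.17-fold difference with TNFa did not pass (0.23 ± 0.09, adjusted p = 0.108), although it did when libraries were scaled to equal totals (0.26, adjusted p = 0.041) or quantile normalized (0.29, adjusted p = 0.0293).

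Aldh1a7 is a rodent paralogue of Aldh1a1 that lies beside it (chr19:20670317-20704927, minus strand). The genes point towards each other, with 49486 bases and 0 genes of the table between them. With TNFa, Aldh1a7 measured 775, 809 and 715 in KO against 689, 735 and 739 in WT. With TGFb, Aldh1a7 measured 1668, 1744 and 1460 in KO against 1093, 885 and 745 in WT. With CM, Aldh1a7 measured 1833, 1891 and 1753 in KO against 1584, 1363 and 1435 in WT. The groups overlapped with TNFa and stood apart with TGFb and CM. Aldh1a7 rose in KO by 1.80-fold with TGFb (log2 0.85 ± 0.12, limma adjusted p = 7.71e-06). The log2 differences of 0.09 ± 0.12 with TNFa (adjusted p = 0.764) and 0.32 ± 0.12 with CM (adjusted p = 0.105) did not pass.

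The coding sequences of both genes are 1506 bases long and 91.6% identical without gaps (GENCODE vM21). Of all 50-base windows of their transcripts, 6.54% of those of Aldh1a1 and 7.49% of those of Aldh1a7 also occur in the other gene, and at 100 bases the shares are 0.04% and 0.05%. No source used here says how reads that match both genes were assigned, so the split between the genes is uncertain. Summed to 1 value before the fit, they gave log2 differences of 0.21 with TNFa (adjusted p = 0.144), 1.25 with TGFb (adjusted p = 3.8e-12) and 0.54 with CM (adjusted p = 4.6e-05). The ratio of Aldh1a1 to Aldh1a7 ran from 5.84 to 6.21 in KO and from 5.14 to 6.05 in WT with TNFa. With TGFb it ran from 5.96 to 7.20 in KO and from 4.02 to 5.75 in WT. With CM it ran from 4.61 to 5.03 in KO and from 3.88 to 4.30 in WT. The KO ratios were thus above the WT ratios with TGFb and CM and overlapped them with TNFa.

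The promoters of both genes are shown because both are near copies that rose in KO with TGFb. RefSeq windows of 250 bases before to 50 after a start (GRCm38.p6) matched 8 of the 9 members in 15 windows, and Rdh10 had none. Aldh1a1 has 2 windows, and the one with the longest run shared with Aldh1a7 was used. Over the 250 bases before the start, it shares an identical run of 65 bases with the Aldh1a7 window, in capitals below. Of their 233 aligned bases 74.2% are identical, with 25 gap bases left out. Each sequence is given 5′ to 3′ on its gene's strand and covers bases -120 to -9 from the start, at chr19:20601848-20601959 (plus strand) for Aldh1a1 and chr19:20727565-20727676 (minus strand) for Aldh1a7.
Aldh1a1: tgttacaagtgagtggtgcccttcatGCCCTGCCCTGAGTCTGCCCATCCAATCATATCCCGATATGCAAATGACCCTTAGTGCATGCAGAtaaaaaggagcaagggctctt
Aldh1a7: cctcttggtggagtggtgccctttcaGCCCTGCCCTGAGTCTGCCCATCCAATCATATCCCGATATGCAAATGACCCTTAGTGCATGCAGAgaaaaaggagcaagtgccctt

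Aldh8a1 encodes an aldehyde dehydrogenase that oxidises 9-cis-retinal in vitro and also acts in tryptophan breakdown (chr10:21253190-21272485, plus strand). With TNFa, Aldh8a1 measured 512, 378 and 303 in KO against 175, 200 and 182 in WT. With TGFb, Aldh8a1 measured 1340, 1211 and 1146 in KO against 475, 517 and 467 in WT. With CM, Aldh8a1 measured 992, 1126 and 1231 in KO against 644, 562 and 488 in WT. No KO library overlapped a WT library of its treatment. Aldh8a1 rose in KO by 2.09-fold with TNFa (log2 1.06 ± 0.17, limma adjusted p = 6.46e-05), 2.53-fold with TGFb (1.34 ± 0.17, adjusted p = 7.57e-07) and 1.98-fold with CM (0.99 ± 0.17, adjusted p = 1.42e-04).

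**Figure D2:**
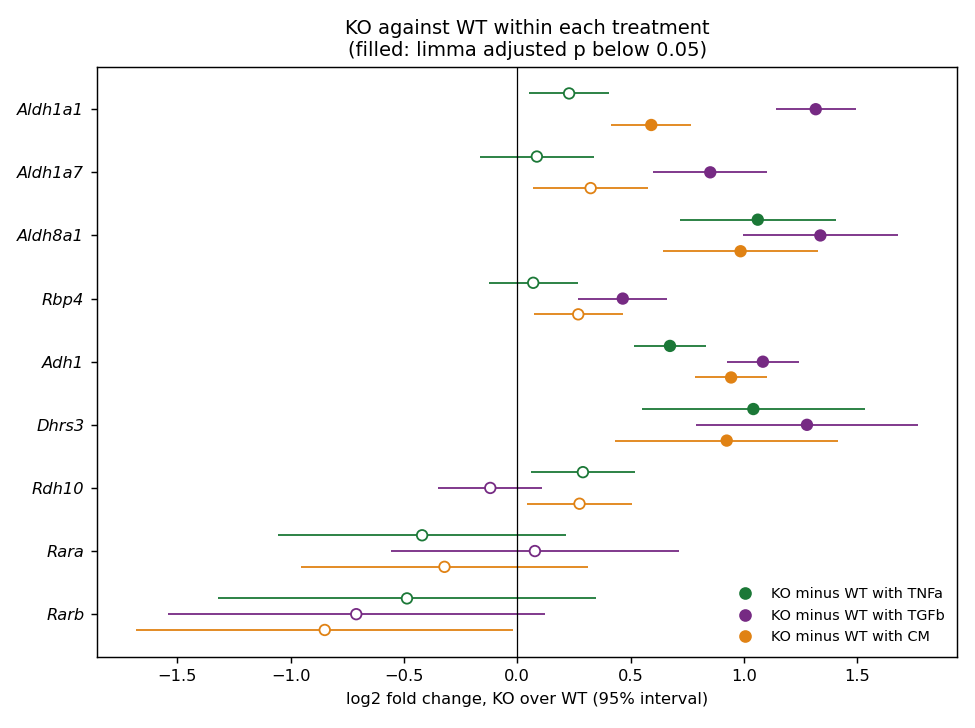
Log2 fold change, KO over WT, of each of the 9 genes (x axis) with its 95% interval, for TNFa (green), TGFb (purple) and CM (orange); filled points have a limma adjusted p below 0.05. Intervals of Adh1, Aldh8a1, Dhrs3 and Aldh1a1 lie right of 0 in all 3 treatments. The Aldh1a1 difference runs from 0.23 with TNFa, which was not called, to 1.32 with TGFb.

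Neither receptor was called higher in KO. Rara, the retinoic acid receptor alpha (chr11:98818644-98865769, plus strand), measured 252, 113 and 317 in KO and 297, 264 and 277 in WT with TNFa. With TGFb, Rara measured 382, 358 and 552 in KO against 488, 507 and 259 in WT. With CM, Rara measured 204, 259 and 212 in KO against 247, 444 and 200 in WT. The groups overlapped in each treatment. The log2 differences were -0.42 ± 0.31 with TNFa, 0.08 ± 0.31 with TGFb (-0.030 when libraries were scaled to equal totals) and -0.32 ± 0.31 with CM, and their limma adjusted p-values were 0.493, 0.923 and 0.620. The 95% interval of the average over treatments, -0.59 to 0.15, leaves room for a fall or a small rise.

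Rarb, the retinoic acid receptor beta (chr14:5650540-6038925, plus strand as listed on mm39), was the member with the lowest level per kilobase, with a median of 13.97. With TNFa, Rarb measured 65.0, 38.9 and 60.6 in KO against 63.4, 76.0 and 88.8 in WT. With TGFb, Rarb measured 49.8, 71.1 and 62.7 in KO against 83.2, 93.4 and 127 in WT. With CM, Rarb measured 60.9, 109 and 47.0 in KO against 98.6, 108 and 176 in WT. Every KO library was below every WT library with TGFb, and the groups overlapped with TNFa and CM. The log2 differences of -0.49 ± 0.41 with TNFa, -0.71 ± 0.41 with TGFb and -0.85 ± 0.41 with CM did not pass (limma adjusted p = 0.558, 0.306 and 0.226). The average over the 3 treatments was called lower in KO (-0.68 ± 0.23, adjusted p = 0.0367), but leaving out any 1 of 8 libraries ended that call. Those were TNFa KO replicate 2, TNFa WT replicates 2 and 3, TGFb KO replicate 1, TGFb WT replicate 3, CM KO replicates 1 and 3 and CM WT replicate 3, with log2 values between -0.68 and -0.60 and adjusted p-values between 0.0507 and 0.0913.

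Rarb is a textbook retinoic acid target, known for a response element in its promoter. A direct repeat of half-sites with 5 bases between them was searched on both strands. A half-site was either AGGTCA or one of its close variants, which were the variant AGTTCA, then the variant GGGTCA and finally the variant GGTTCA. It occurred in 32 of 32851 promoter windows (0.0974%). Among the members with a window it was found in Rarb alone, at base -53 from the start. The window of Cyp26a1, which encodes the main retinoic acid hydroxylase of liver, holds one on the opposite strand at base -32. The same repeat with a spacer of 1 base (0.222% of windows) or 2 bases (0.268%) was found in no member window, which says only that these letters are not there. Both matches are shown because the log2 differences between KO and WT were negative for Rarb and positive for Cyp26a1 in each treatment. No Rarb difference within a treatment was called, and its averaged call was lost on leaving out any of 8 libraries. The half-sites are in capitals, on the gene's strand and from RefSeq (GRCm38.p6). The Rarb match lies at chr14:16575509-16575538 (minus strand) and the Cyp26a1 match at chr19:37697767-37697796 (plus strand). GENCODE vM21 places all 30 printed Rarb bases, which precede the RefSeq start used here, within an annotated exon. Rarb lies on the minus strand in that build.
Rarb: cccgggaagGGTTCAccgaaAGTTCActcg
Cyp26a1: aattaaagaTGAACTttgggTGAACTaatt

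Cyp26a1 rose in KO in each treatment. With TNFa, Cyp26a1 measured 353, 402 and 562 in KO against 272, 210 and 212 in WT. With TGFb, Cyp26a1 measured 1527, 1370 and 1751 in KO against 733, 898 and 665 in WT. With CM, Cyp26a1 measured 1115, 999 and 1109 in KO against 569, 357 and 503 in WT. No KO library overlapped a WT library of its treatment, and the log2 differences were 0.90 ± 0.18 with TNFa (limma adjusted p = 0.00119), 1.02 ± 0.18 with TGFb (adjusted p = 1.35e-04) and 1.20 ± 0.18 with CM (adjusted p = 2.7e-05). Cyp26b1, a second hydroxylase, was called higher in KO with TNFa (1.63 ± 0.25, adjusted p = 4.13e-05). It measured 221, 175 and 136 in KO against 59.0, 62.2 and 46.8 in WT there. Its differences of 0.70 ± 0.25 with TGFb (limma adjusted p = 0.0662) and 0.47 ± 0.25 with CM (adjusted p = 0.286) did not pass. Cyp26c1, the third enzyme of the family, stayed between 0 and 23.7 in all libraries.

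The size of the KO effect differed between treatments for Aldh1a1 and Aldh1a7. The KO effect on Aldh1a1 was smaller with TNFa than with TGFb by 1.09 ± 0.12 on the log2 scale (interaction -1.09, limma adjusted p = 6.8e-06) and smaller with CM than with TGFb (-0.73 ± 0.12, adjusted p = 0.00324). For Aldh1a7 the effect was smaller with TNFa than with TGFb (-0.77 ± 0.17, adjusted p = 0.0254). Of all tested genes, 1.10% were called in the comparison of TNFa with TGFb and 0.491% in that of CM with TGFb. These comparisons share the TGFb libraries and so do not bear on each other independently. Between CM and TNFa limma called 0 members (0.630% of all genes), and an unadjusted p below 0.05 was found for 2, Aldh1a1 (0.36 ± 0.12) and Adh1 (0.27 ± 0.11). The joint F-test over the 3 treatments called Aldh1a1 and Aldh1a7 as well, against 1.70% of all genes. For Aldh1a7 that F-test call was lost on leaving out any 1 of 12 libraries (TNFa KO 1 and 3, the 3 TNFa WT, TGFb KO 1 and 2, TGFb WT 2 and 3 and the 3 CM KO libraries), with adjusted p between 0.0558 and 0.129. The Aldh1a7 call between TNFa and TGFb was lost without any 1 of 5 libraries (TNFa KO 3, TNFa WT 3, TGFb KO 1, TGFb WT 2 or TGFb WT 3), with adjusted p between 0.0585 and 0.0909, and under equal totals (-0.62, adjusted p = 0.0648). The Adh1 difference between TNFa and TGFb just missed the threshold (-0.41 ± 0.11, adjusted p = 0.0591). For Aldh8a1 and Dhrs3 it was -0.28 (95% interval -0.76 to 0.21) and -0.24 (-0.93 to 0.46), which does not show equal effects.

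Members also differed between treatments within each genotype. The comparisons of treatments share groups with each other, so each is given by its own values. In TNFa against TGFb, 7 members were called lower in KO (12.3% of all tested genes were) and 3 in WT (8.06%). Aldh8a1 fell furthest, by 1.66 ± 0.17 in KO and by 1.38 ± 0.17 in WT on the log2 scale (limma adjusted p = 4.87e-09 and 4.05e-07). Adh1 fell by 0.73 ± 0.08 in KO and by 0.32 ± 0.08 in WT (adjusted p = 1.23e-08 and 0.00362), and Rbp4 fell by 0.72 ± 0.10 in KO and by 0.32 ± 0.10 in WT (adjusted p = 8.34e-07 and 0.0215). Aldh1a1 fell by 1.23 ± 0.09 in KO (adjusted p = 6.35e-12), while its difference in WT, -0.14 ± 0.09, did not pass (adjusted p = 0.355). Aldh1a7 behaved likewise, with -1.08 ± 0.12 in KO (adjusted p = 5.01e-08) and -0.32 ± 0.12 in WT (adjusted p = 0.0962). In KO, Dhrs3 (-0.69 ± 0.24, adjusted p = 0.0383) and Rara (-1.02 ± 0.31, adjusted p = 0.0163) were also called lower, and Rdh10 was called higher, as were 10.1% of all tested genes (0.47 ± 0.11, adjusted p = 0.00223). Under equal totals the WT calls of Rbp4 (-0.21, adjusted p = 0.186) and Adh1 (-0.21, adjusted p = 0.0649) and the KO calls of Dhrs3 (-0.43, adjusted p = 0.174) and Rara (-0.76, adjusted p = 0.0631) were lost. Leaving out 1 library also ended the calls of Rbp4 in WT (any of TNFa 1, TNFa 3, TGFb 2 or TGFb 3, adjusted p up to 0.142), of Dhrs3 in KO (any but TGFb 2, up to 0.186) and of Rara in KO (TNFa 2, with log2 -0.58 and adjusted p = 0.191, or TGFb 3, with -0.82 and 0.102).

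Against TNFa, CM raised 5 members in KO (8.38% of all tested genes were called higher) and 4 in WT (6.81%). Aldh8a1 rose by 1.52 ± 0.17 in KO and 1.59 ± 0.17 in WT (limma adjusted p = 9.82e-08 and 7.07e-08). Aldh1a7 rose by 1.25 ± 0.12 in KO and 1.02 ± 0.12 in WT (adjusted p = 1.59e-08 and 6.57e-07), and Aldh1a1 rose by 0.95 ± 0.09 in KO and 0.59 ± 0.09 in WT (adjusted p = 4.04e-09 and 1.40e-05). Adh1 rose by 0.72 ± 0.08 in KO and 0.45 ± 0.08 in WT (adjusted p = 5.66e-08 and 1.08e-04). Rbp4 rose in KO (0.48 ± 0.10, adjusted p = 5.84e-04), and its WT difference of 0.28 ± 0.10 did not pass (adjusted p = 0.0533).

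Against TGFb, CM gave higher Aldh1a1 (0.45 ± 0.09, limma adjusted p = 5.51e-04) and Aldh1a7 (0.70 ± 0.12, adjusted p = 1.72e-04) in WT, where 5.76% of all tested genes were called higher. In KO, Aldh1a1 was the single member called, and it was lower (-0.28 ± 0.09, adjusted p = 0.0355), as were 5.39% of all tested genes. That call was lost under equal totals (-0.18, adjusted p = 0.165), under quantile normalization (-0.25, adjusted p = 0.0511) and without TGFb KO 1, CM KO 1 or CM KO 3 (adjusted p between 0.0649 and 0.218). The direction of the CM to TGFb difference in Aldh1a1 was thus opposite in KO and WT, which is the interaction of -0.73 given above.

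**Figure D3:**
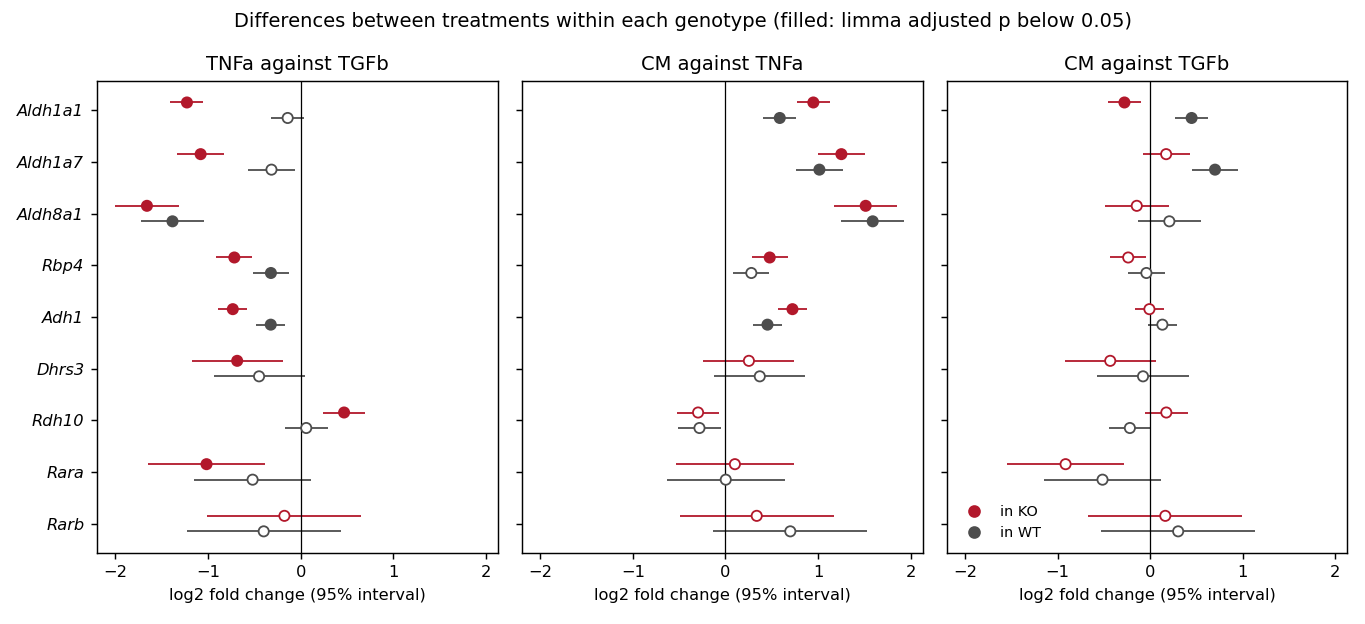
Log2 fold change between treatments (x axis) with its 95% interval for each of the 9 genes, in KO (red, upper point) and WT (grey, lower point); filled points have a limma adjusted p below 0.05. Aldh8a1 was lower with TNFa than with TGFb by 1.66 in KO and 1.38 in WT, and Aldh1a1 lay on opposite sides of 0 in the comparison of CM with TGFb.

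The wider pathway was read from lists of known genes, also chosen with earlier results of these data known. Counts are averaged over the 3 treatments, where 11.2% of all tested genes were called higher and 9.53% lower in KO. Of 22 tested oxidoreductases of retinol and retinal (Adh1, Dhrs3 and Rdh10 among them), 11 were called higher and 1 lower in KO. They included the retinol dehydrogenases Rdh7 (0.64 ± 0.06, limma adjusted p = 9.4e-10), Rdh9 (0.66 ± 0.07, adjusted p = 1.12e-08) and Rdh16 (0.46 ± 0.06, adjusted p = 2.63e-07). Bco1, which cleaves carotene to retinal, was the one called lower (-0.54 ± 0.08, adjusted p = 9.84e-06), with -0.80 ± 0.14 with TNFa (adjusted p = 4.12e-04), -0.64 ± 0.14 with TGFb (adjusted p = 0.00248) and -0.19 ± 0.14 with CM, which did not pass (adjusted p = 0.484). Of 4 tested genes listed as retinal dehydrogenases, 3 were called higher, the members Aldh1a1, Aldh1a7 and Aldh8a1. Their activity on retinal was not measured. Aldh1a3, named here after its values were seen, had group means between 16.7 and 41.8 and a difference of -0.83 ± 0.42 (adjusted p = 0.173). Of 15 tested other aldehyde dehydrogenases, 9 were called higher and 1 lower. Aldh1l1, a folate enzyme, rose by 1.13 ± 0.05 (adjusted p = 2.6e-16), and Aldh1l2, its mitochondrial relative, fell by 0.82 ± 0.12 (adjusted p = 5.93e-06), with -0.95 ± 0.21 with TNFa (adjusted p = 0.00357), -1.01 ± 0.21 with TGFb (adjusted p = 9.8e-04) and -0.48 ± 0.21 with CM, which did not pass (adjusted p = 0.17).

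Stra6, a membrane receptor for Rbp4, was below the filter with values of 0 to 10.6. Its relative Stra6l measured between 1089 and 2404. Of 12 tested genes of retinyl ester storage and hydrolysis, 6 were called higher in KO, carboxylesterases such as Ces1g (0.58 ± 0.07, limma adjusted p = 2.6e-07) and the lipoprotein lipase gene Lpl (0.85 ± 0.12, adjusted p = 1.58e-06) among them. Of 6 tested retinoid receptors, Rarb alone was called, and that call was lost on leaving out any of 8 libraries. Of 18 tested retinoic acid targets, 8 were called higher and 3 lower. That list holds Dhrs3, Rarb, Cyp26a1 and Cyp26b1 as well, and its members did not share a direction. Pck1, which encodes the first committed enzyme of glucose synthesis, rose by 1.16 ± 0.06 (adjusted p = 3.01e-15), while Tgm2, a transglutaminase, fell by 0.46 ± 0.06 (adjusted p = 2.57e-07).

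**Figure D4:**
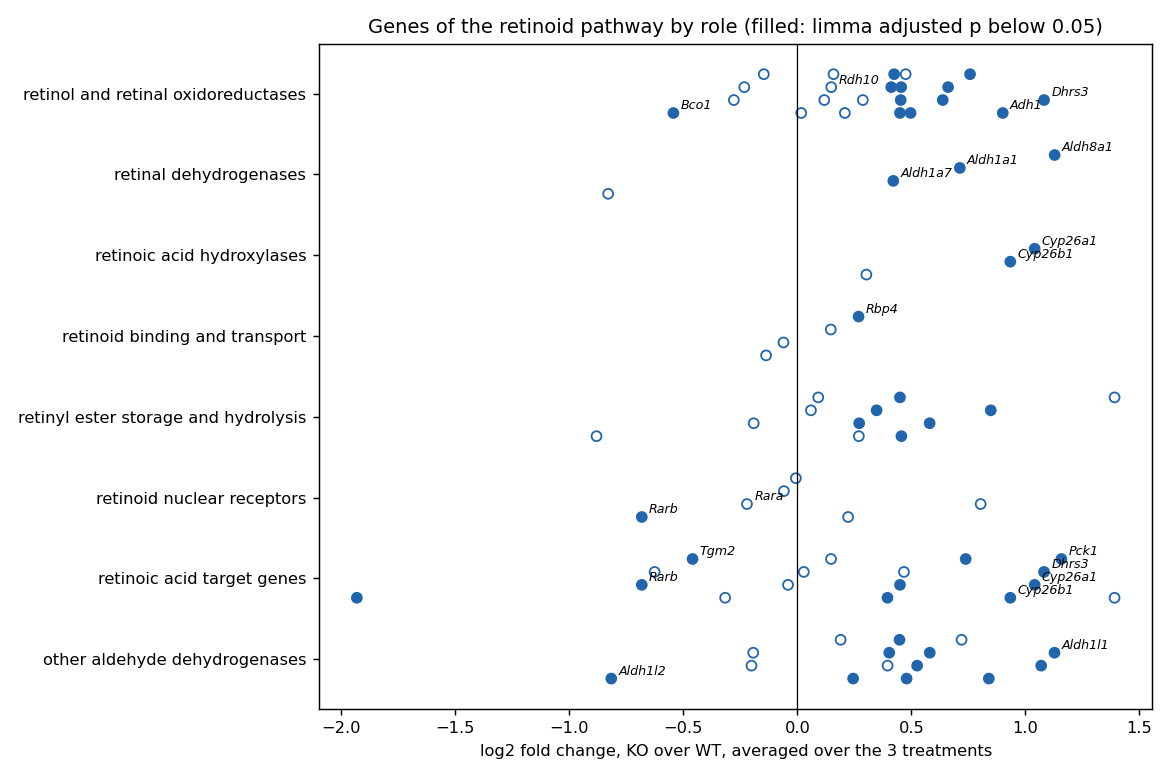
Log2 fold change, KO over WT, averaged over the 3 treatments (x axis) for genes of 8 pathway lists (one row each; vertical offsets within a row only separate points); filled points have a limma adjusted p below 0.05, and a gene on several lists appears in each. Most called oxidoreductases and aldehyde dehydrogenases lie right of 0, and Rarb (-0.68) is the called receptor, a call lost on leaving out any of 8 libraries.

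Markers of other liver cells moved with genotype. Of 15 Kupffer cell and macrophage markers, 10 were called higher in KO with TNFa, 11 with TGFb and 9 with CM, against 4.19%, 7.25% and 5.62% of all tested genes. Their summed level ran from 6998 to 7881 in KO and from 3669 to 4271 in WT with TNFa, from 5476 to 6579 in KO and from 2994 to 3583 in WT with TGFb, and from 5234 to 5608 in KO and from 2602 to 3166 in WT with CM. Of 14 sinusoidal endothelial markers, 6, 4 and 1 were called higher in KO with TNFa, TGFb and CM, and the 1 with CM is near the share of all genes (5.62%). Their sums ran from 6346 to 6698 in KO and from 3479 to 3955 in WT with TNFa, from 5371 to 6674 in KO and from 3921 to 4262 in WT with TGFb, and from 4804 to 5097 in KO and from 3156 to 3970 in WT with CM. The part of these cells in the rise of the retinoid genes was not tested. In bulk RNA, fewer cells of a type and less RNA per cell cannot be told apart.

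Markers of stellate cells, the retinoid store of the liver, differed widely in level. Of the 19 markers, Hand2, Lhx2 and Acta2 stayed below 10 in all 18 libraries, and the retinol esterifying enzyme Lrat ran from 0 to 45.1. Reln, Dcn, Ecm1, Rgs5 and Colec10 were above 10 in all 18 libraries. Group means of Dcn and Colec10 were higher in KO in each treatment, with Colec10 at 124 against 37.1 with TNFa. Those of Ecm1 were lower in KO in each treatment, at 310 against 319 with TNFa, 391 against 617 with TGFb and 253 against 387 with CM. Those of Reln and Rgs5 differed in direction between treatments. Summed over the list, stellate markers ran from 1295 to 2572 over all libraries, most of it from Reln, Dcn and Ecm1, with medians of 744, 330 and 347. With TNFa their sum was 2098 to 2572 in KO and 1943 to 2061 in WT, and the ranges overlapped with TGFb and CM. Of the 10 tested, limma called 2 higher in KO with TGFb (7.25% of all tested genes were) and 1 with CM (5.62%), counts too small to read against those shares.

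Hepatocyte genes moved as well. Of 9 hepatocyte markers, 4 were called higher and 2 lower in KO with TNFa (4.19% and 3.70% of all tested genes were), 5 higher with TGFb (7.25%) and 4 higher with CM (5.62%). Averaged over treatments, 4 were called higher and 3 lower in KO (11.2% and 9.53% of all tested genes were), so the markers did not share a direction. Cps1, which starts the urea cycle, rose in KO by 0.77 ± 0.09 with TNFa, 1.38 ± 0.09 with TGFb and 1.05 ± 0.09 with CM (limma adjusted p = 2.98e-07, 7.96e-13 and 5.98e-10). Group means of Apoa1 and Apob were lower in KO in each treatment, with TNFa at 10682 against 15615 and 147160 against 168500. In TNFa against TGFb, 8 of the 9 were called lower in KO (12.3% of all tested genes were) and 5 in WT (8.06%), and in CM against TNFa 9 were called higher in KO (8.38%) and 6 in WT (6.81%). The summed hepatocyte level was 1531000 to 1606000 in KO and 1598000 to 1671000 in WT with TNFa, 2942000 to 3099000 in KO and 2113000 to 2225000 in WT with TGFb, and 2418000 to 2505000 in KO and 1876000 to 1975000 in WT with CM. Most of each sum was albumin, a single gene, with means of 1336700 in KO and 1386700 in WT with TNFa. Its means were 2643300 in KO and 1870000 in WT with TGFb, and 2113300 and 1590000 with CM. The ranges of the sums overlapped with TNFa, where the KO median was slightly below that of WT, and sums were higher in every KO library with TGFb and CM. The part of this shift in the differences of the retinoid genes was not tested.

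Across the 18 libraries, the 6 members called higher in KO with TGFb correlated positively with each other. Pearson's r of log2 values ran from 0.514 between Aldh1a7 and Dhrs3 to 0.921 between Aldh1a1 and Adh1, a description over libraries that share genotype and treatment. With those 6, r ran from -0.465 (Aldh1a7) to -0.0636 (Dhrs3) for Rdh10, from 0.0272 (Adh1) to 0.449 (Rbp4) for Rara and from -0.479 (Dhrs3) to 0.0477 (Aldh1a7) for Rarb. Among 10817 tested genes with a mean of at least 50, the 5 most like Aldh1a1 were Gpcpd1 (0.972), Sult2a1 (0.964), Slc38a4 (0.962), Slc25a15 (0.956) and Sdc2 (0.954). The gene most like each other member was Idh1 for Aldh1a7 (0.977), Slco1a4 for Aldh8a1 (0.987), Acy3 for Rbp4 (0.963), Fbp1 for Adh1 (0.991) and Serpina6 for Dhrs3 (0.916). For Rdh10 it was Otud6b (0.905), for Rara Spata13 (0.886) and for Rarb Tut7 (0.816).

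Per kilobase of exon, the members fell in the order Rbp4 (median over libraries 5336), Adh1 (3937), Aldh1a1 (1049), Aldh1a7 (594.5), Rdh10 (416.7), Aldh8a1 (117.3), Dhrs3 (116.7), Rara (61.96) and Rarb (13.97). Over the 18 libraries the ranges of Adh1 and Aldh1a1 did not overlap, nor did those of Rdh10 and Aldh8a1, and all other neighbours in that order overlapped. By group means Adh1 was above Rbp4 in KO with CM (7118 against 6220 per kilobase) and below it in the other 5 groups, and Rdh10 was above Aldh1a7 in both TNFa groups. Dhrs3 was above Aldh8a1 in KO with TNFa (141.8 against 90.58) and in WT with TNFa (71.95 against 42.35). Rara was above Aldh8a1 in WT with TNFa (64.01 against 42.35) and above Dhrs3 in WT with TGFb (95.75 against 93.54).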

How the data were processed

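RNA of hepatocytes was measured in 18 libraries, 3 replicates for each of 6 groups, which were taken from the sample titles. The deposited table gives 1 normalized signal per gene and library, made by the authors with DESeq2, per the file headers and the submitters' processing notes, which also name Partek, STAR 2.7.8a and mm39. How multi-mapping reads were counted is not given in the sources used here. Depth was estimated as the library sum over the step between low values, but whole reads were not recovered (79.4% to 83.0% of values up to 20 reads were within 0.05 of a whole multiple). A limma trend model (limma 3.58.1, R 4.3.3) of 6 group means, without a block, was fitted to log2 of the value plus 1. It covered the 14455 genes that reached 10 in 3 or more libraries, with Benjamini-Hochberg adjustment over all of them. The pseudocount of 1 understates fold changes of low genes. P-values measure spread between libraries, and no label says whether libraries of a group are from different mice. The model was tested on simulated data.

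The 9 members and all gene lists were chosen with earlier results of these data known. All members are named. From each list up to 4 called genes with the smallest p-values in a comparison were named, and by role Stra6, Lrat and the Cyp26 genes. Aldh1a3, Stra6l, Apoa1, Apob, Rgs5 and Colec10 were named after their values were seen. A gene of the binding and transport list is not reported here, nor is that list's count. The 5 genes most like Aldh1a1 and 1 for each other member were taken by Pearson's r. Tried as alternatives were pseudocounts 0.5 and 5, dropping the filter or asking for a mean of at least 50, equal totals, quantile normalization, both Aldh1a genes summed, a replicate block, fitting the compared groups alone, and leaving out each library. Exon lengths, transcripts and promoters came from GENCODE vM21 and RefSeq (GRCm38.p6) and were joined by symbol or gene ID, while gene positions are those of the deposited table (mm39). Python 3.11.15, NumPy 2.4.6, pandas 2.3.3 and matplotlib 3.10.9 were used.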

Additional observations from a re-analysis of the deposited data

Results flagged for a closer look

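The KO effect on 2 members differed between treatments by a test of the difference itself (limma interaction, adjusted over all tested genes). For Aldh1a1 the log2 difference between KO and WT was 0.23 with TNFa, 1.32 with TGFb and 0.59 with CM. The interaction was -1.09 ± 0.12 between TNFa and TGFb (adjusted p = 6.8e-06) and -0.73 ± 0.12 between CM and TGFb (adjusted p = 0.00324), and the joint F-test over the 3 treatments gave 40.8 (adjusted p = 2.71e-05). For Aldh1a7 the log2 difference was 0.09 with TNFa, 0.85 with TGFb and 0.32 with CM. Its interaction between TNFa and TGFb was -0.77 ± 0.17 (adjusted p = 0.0254), and its F-test gave 10.1 (adjusted p = 0.0385). Leaving out 1 library ended the F-test call for 12 of the 18 libraries (adjusted p up to 0.129) and the interaction call for 5 (up to 0.0909). By the F-test 1.70% of all tested genes were called. Of the hepatocyte markers, Cps1 (-0.61 ± 0.12, adjusted p = 0.0102) and Ttr (-0.90 ± 0.19, adjusted p = 0.0132) were called in the same TNFa to TGFb interaction, and the part of that shift was not tested. Reads that match both Aldh1a genes may have been split between them, and their summed value gave an interaction of -1.04 between TNFa and TGFb (adjusted p = 1.16e-05).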

How the results depend on the processing

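Of 1359 values of single members under an alternative, covering 80 results, 1278 kept direction and side of the threshold, 55 lost a call, 21 gained one and 5 reversed. Each call of a rise in KO over WT within a treatment held under every alternative that kept all libraries. The reversals were all of uncalled Rara differences in KO against WT: with TGFb (0.08) -0.030 under equal totals and -0.23 to 0.25 without 1 library, with TNFa (-0.42) -0.72 to 0.017 without 1 library, and with CM (-0.32) -0.56 to 0.011. Those that turned the sign were TGFb KO 3 (-0.11), TGFb WT 3 (-0.23), TNFa KO 2 (0.017) and CM WT 2 (0.011). The Rarb average lost its call with no filter (adjusted p = 0.0521). Under equal totals the number of members called was 1 for TNFa against TGFb in WT (3 in the report), 1 for the TNFa to TGFb interaction (2), 1 for the F-test (2) and 0 for CM against TGFb in KO (1). The last was also 0 under quantile normalization and 2 with a pseudocount of 5, a mean of at least 50 or only the groups compared, and the F-test gave 1 with no filter. Without 1 library these counts ran from 0 to 2 for CM against TGFb in KO, 1 to 4 for the TNFa to TGFb interaction and 1 to 2 for the F-test. The cause of these changes was not tested.

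Equal totals moved the median log2 difference of all genes to -0.12 for KO against WT with TGFb, 0.11 for TNFa against TGFb in WT and 0.29 in KO, -0.17 for CM against TNFa in KO and 0.10 for CM against TGFb in KO. Calls of KO against WT with TGFb were then 830 higher and 1494 lower (1048 and 716 as deposited), with CM 627 and 874 (813 and 545), and on average 1365 and 2009 (1614 and 1377). With TGFb the Aldh1a1 difference was 1.21 under that scaling, and that of Rbp4 0.36 (adjusted p = 0.0127). Between treatments, higher and lower calls under equal totals were 1366 and 873 for TNFa against TGFb in WT (771 and 1165) and 3756 and 1119 in KO (1458 and 1779). For CM against TNFa they were 857 and 1062 in WT (985 and 789) and 878 and 1906 in KO (1211 and 624; 1158 and 928 when quantile normalized). For CM against TGFb they were 1102 and 626 in WT (832 and 880) and 1241 and 491 in KO (751 and 779).

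With the replicate number as a block, 3, 6 and 4 members were called for KO against WT with TNFa, TGFb and CM, as without it, and the block changed 0 of 80 calls. KO and WT deviations of the same number correlated between -0.0279 and 0.0597, so the numbers were not taken to pair KO with WT libraries. Between treatments of one genotype, deviations of the same number correlated between -0.0583 (WT, CM and TNFa, replicate 2) and 0.164 (KO, TNFa and TGFb, replicate 2). Different numbers were not compared there, and whether treatments shared a cell preparation was not tested. Depth limits Rarb most, at 36 to 160 estimated reads.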
